A study of Saccharomyces cerevisiae with 15 samples.

Results

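Light cells of a respiration-competent yeast culture can be set against dense cells of the same strain and against light cells of a strain without mitochondrial DNA, and the comparison described here asked which transcripts put them on 1 side of both. For each of 5449 genes of the budding yeast Saccharomyces cerevisiae, the mean of the 5 WT low density arrays was set against the average of the other 2 group means, those of 5 WT high density and 5 Rho0 low density arrays. All 15 arrays of the study entered it, and each gene was represented by 1 probe set. A gene counted as on 1 side of both others when WT low density differed from each of them in the same direction, since a difference from the average can also arise with WT low density between the others.

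The arrays were Affymetrix Yeast Genome 2.0 chips, which also carry probe sets for the fission yeast Schizosaccharomyces pombe. BY4741, a haploid strain of mating type a used in many laboratories, was grown with shaking at 30 °C in YPD, a rich medium, with 2% glucose and no further treatment, and cells were taken on day 3. WT high density and WT low density are the dense and the light cells of this strain after separation on a Percoll gradient, and Rho0 low density is the light fraction of the Rho0 strain in the same BY4741 background. The labels give 5 biological replicates per group but not whether they were separate cultures, so that p-values measure the spread between these samples.

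When glucose runs out, yeast turns from fermentation to respiration of the ethanol it has made, which needs the cytochrome chain of mitochondria. Subunits of that chain are encoded partly in the nucleus and partly on mitochondrial DNA, so a Rho0 cell, which has lost that DNA, carries nuclear genes for complexes it cannot complete. In cultures that have used up their sugar, dense cells are known as the fraction rich in quiescent cells with large carbohydrate stores, and light cells as the fraction that is poorer in them.

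The values are log2 signals after RMA, so that a difference of 1 is a doubling relative to the array's other transcripts. Precision is limited by the number of arrays. In whole samples, fewer cells of a kind and less RNA per cell cannot be told apart. The background level was set at 2.56 log2, under which 95% of S. pombe probe sets had their mean. On average 4860 genes lay above it in WT low density, 5113 in WT high density and 5032 in Rho0 low density. Genes of mating type a averaged 7.34 to 7.59 per WT low density array and those of the opposite type 4.42 to 4.85, and among the latter SAG1, for an agglutinin, was itself bright (8.97 in WT low density). In WT high density these averages were 6.16 to 6.36 for mating type a and 5.48 to 5.94 for the opposite type, and in Rho0 low density 6.90 to 7.33 and 4.28 to 4.55. The alpha pheromone gene MF(ALPHA)1 lay under the background level in both low density groups (2.26 and 2.24) and at 2.82 in WT high density. MF(ALPHA)2, its sister gene, read 3.91 in WT low density, 6.20 in WT high density and 3.21 in Rho0 low density. The part of these genes in the results was not tested. None of the genes on mitochondrial DNA was named in the annotation used, so the Rho0 label was not checked by them. Rho0 low density replicate 1 stood apart from its group in several genes, and the counts below were also made without it.

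WT low density lay above each of the other groups in 495 genes, 9.08% of those tested, and below each in 1045 genes, 19.2% (both limma comparisons at an adjusted p under 0.05). Both differences are taken from the same 5 WT low density arrays, so they are not independent of each other. The difference from the average alone was called higher in 1130 genes (20.7%) and lower in 2415 (44.3%). Of these 3545 genes (65.1% of those tested) 1540 lay on 1 side of both others, 1590 differed from 1 of the groups by the test, 405 lay between the groups with opposite calls and 10 had neither comparison called. Against WT high density alone 1425 genes were higher (26.2%) and 2238 lower (41.1%), and against Rho0 low density alone 1235 (22.7%) and 2430 (44.6%). Without Rho0 low density replicate 1 the genes on 1 side numbered 487 above and 1006 below.

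The nearer of the 2 differences, which is the smaller in size, had a median of 0.73 log2 among the genes above both groups and -0.64 among those below. It reached 1 log2 in 157 of the higher and 168 of the lower genes, and 2 log2 in 27 and 3. All 5 WT low density arrays lay outside the range of the 10 others in 357 genes upward (6.55%) and 634 downward (11.6%), of which 350 and 618 were also called on 1 side. The other groups were close to each other, with the 95% interval of their difference within 1.5-fold either way, in 129 of the 495 and 352 of the 1045 genes. Of the sum of squares between the 3 groups 30.8% lay in the comparison of WT low density with the average, and the remaining 69.2% in that of WT high density with Rho0 low density.

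The direction of these counts depends on the scale of the arrays. The median gene was 0.22 log2 lower in WT low density than in the average of the others. Among genes on 1 side 32.1% were higher, against 50.9% after quantile normalization within the S. cerevisiae genes, 52.2% with arrays shifted to the same S. cerevisiae median, 24.8% with the same S. pombe median and 8.72% with the same mean of the poly-A spike-in RNAs. These scalings moved the median gene by 0.17, 0.19, -0.09 and -0.46 log2. Each of the 34 genes named below for the size of its difference kept its direction and both calls under all of them. These genes were chosen for large differences in the same data, which made that likely, and it does not extend to smaller differences.

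**Figure D1:**
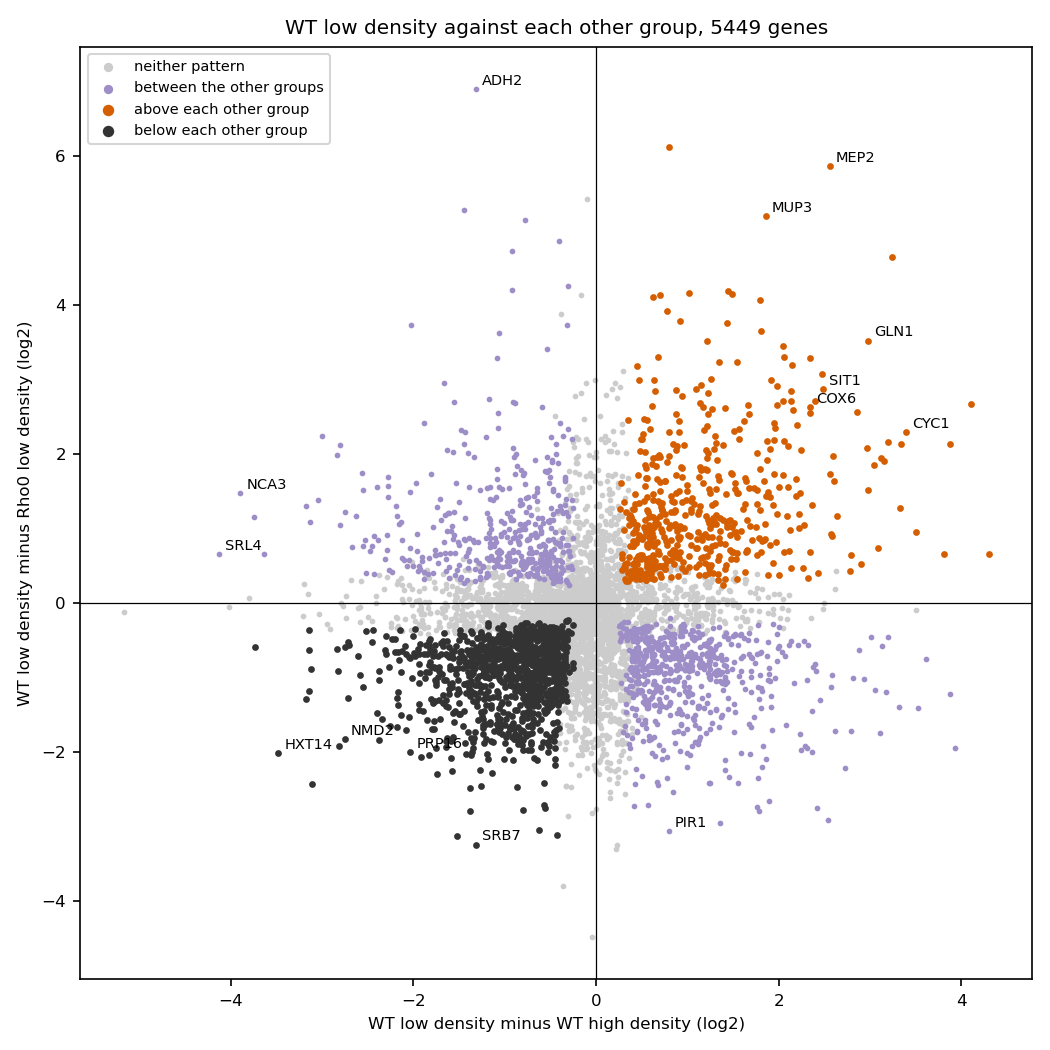
Each point is 1 of 5449 genes, with the log2 difference of WT low density from WT high density on the horizontal axis and from Rho0 low density on the vertical axis. The 495 genes above each other group fill the upper right (orange), the 1045 below each the lower left (dark grey), and the 1037 genes (19% of those tested) for which WT low density lay between the groups with both differences called lie in the other corners (purple). GLN1 and MEP2 stand far out on the upper right and HXT14 on the lower left.

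GLN1 and MEP2, both for the use of ammonium, had the 2 largest nearer differences among the genes above both groups that were ranked. Genes ranked in either direction had to have no WT low density value inside the range of the 10 other arrays. For them that separation was set by the choice and is not a result. GLN1 (YPR035W), for glutamine synthetase, which joins ammonium to glutamate, read 10.28, 9.37, 9.58, 9.08 and 8.72 log2 in WT low density replicates 1 to 5, 6.83, 6.80, 6.84, 5.76 and 5.91 in WT high density and 6.12, 6.10, 5.85, 5.59 and 5.77 in Rho0 low density. By the ranking rule every WT low density array was higher than all 10 others, while the other groups overlapped. GLN1 was 7.88-fold higher than in WT high density (2.98 ± 0.26 log2, difference ± SE, limma adjusted p = 1.12e-08) and 11.5-fold higher than in Rho0 low density (3.52 ± 0.26, adjusted p = 1.20e-09).

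MEP2 (YNL142W), for the high-affinity ammonium permease, which also acts as a sensor of ammonium, read 12.62, 12.48, 12.97, 12.92 and 12.78 in WT low density, 10.11, 10.20, 10.19, 10.28 and 10.19 in WT high density and 6.33, 7.03, 7.10, 6.94 and 7.06 in Rho0 low density. The 3 groups did not overlap, with WT high density in the middle. The excess of WT low density was 2.56 ± 0.14 log2 over WT high density (adjusted p = 2.84e-11) and 5.86 ± 0.14 over Rho0 low density (adjusted p = 3.09e-16).

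Of 30 measured permeases for amino acids, peptides and ammonium, 13 lay above both groups (43.3%, against 9.08% of all genes) and 0 below both. The methionine permease genes MUP1 (high affinity) and MUP3 (low affinity) had means of 10.91 and 12.22 in WT low density, 8.997 and 10.36 in WT high density, and 7.91 and 7.03 in Rho0 low density. Neither gene's groups overlapped. The ammonium permease gene MEP3 and the amino acid permease genes AGP1 and BAP3 exceeded WT high density by 1.43, 1.45 and 2.98 log2 and Rho0 low density by 3.76, 4.19 and 1.51. PTR2, for the peptide transporter, stood only 0.79 ± 0.22 log2 above WT high density but 6.11 ± 0.22 above Rho0 low density.

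The other permease genes above both groups were OPT1, CAN1, TAT1, HIP1, AGP2 and TPO5, with nearer differences from 0.37 (TPO5) to 1.42 (OPT1). A further 11 permeases lay between the groups. Among them the general amino acid permease gene GAP1 was -1.63 log2 against WT high density and 2.05 against Rho0 low density, and the proline permease gene PUT4 -1.45 and 5.27. The count above both groups was 9 to 14 under the 4 other scalings.

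Of 26 enzymes and regulators of nitrogen use, 5 were above both groups (19.2%, against 9.08% of all genes) and 2 below both (7.69%, against 19.2%). DAL2, for allantoicase, was higher by 1.44 and 1.02 log2 than WT high density and Rho0 low density, and PRB1 (vacuolar protease B), PUT1 (proline oxidase) and the activator gene GAT1 were the remaining members above both beside GLN1. GLN3, for the other main activator of these genes, stood lower, at -0.46 and -0.56, as did GDH2, for the glutamate dehydrogenase that releases ammonium, at -0.81 and -1.21. With arrays shifted to the same poly-A mean the counts of this list were 2 and 6, and without WT high density replicate 3 the count below was 1.

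Methionine and sulfur genes gave 4 above and 2 below of 28 (14.3% and 7.14%, against 9.08% and 19.2% of all genes). SAM2 (YDR502C), for S-adenosylmethionine synthetase, the maker of the cell's main methyl donor, read 7.23, 6.98, 6.65, 6.41 and 5.68 in WT low density, 4.34, 4.36, 4.34, 3.92 and 3.99 in WT high density and 3.97, 3.85, 3.53, 4.04 and 4.02 in Rho0 low density. The WT low density arrays were all higher than the rest, and the other groups overlapped. SAM2 was 5.28-fold above WT high density and 6.54-fold above Rho0 low density (adjusted p = 1.68e-08 and 3.34e-09).

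MET30, for a ubiquitin ligase subunit that restrains the sulfur activator Met4, was higher by 1.57 and 2.20, MET2 by 1.15 and 2.92 and the regulator gene MET32 by 0.36 and 0.40. SAM1, for the second form of the synthetase that SAM2 encodes, did not share the pattern, with -0.54 against WT high density and 3.41 against Rho0 low density. MET7 and MHT1 lay below both groups. The counts of this list were 3 and 3 under the S. pombe scaling and 3 and 5 under the poly-A scaling.

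Amino acid biosynthesis had 12 of 62 genes above both groups (19.4%, against 9.08% of all genes) and 5 below (8.06%, against 19.2%). Among those above were ARO3 (aromatic amino acids, 1.30 and 2.24 log2 against WT high density and Rho0 low density) and HIS1 (histidine, 1.44 and 1.06). Purine synthesis had 6 of 17 above (35.3%) and 1 below (5.88%). Among those above were IMD2 and IMD3, near copies of each other for the first enzyme of the guanine branch, at 1.11 and 0.59 as nearer differences. Both lists turned with arrays scaled to poly-A controls, to 2 and 12 and to 0 and 1.

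**Figure D2:**
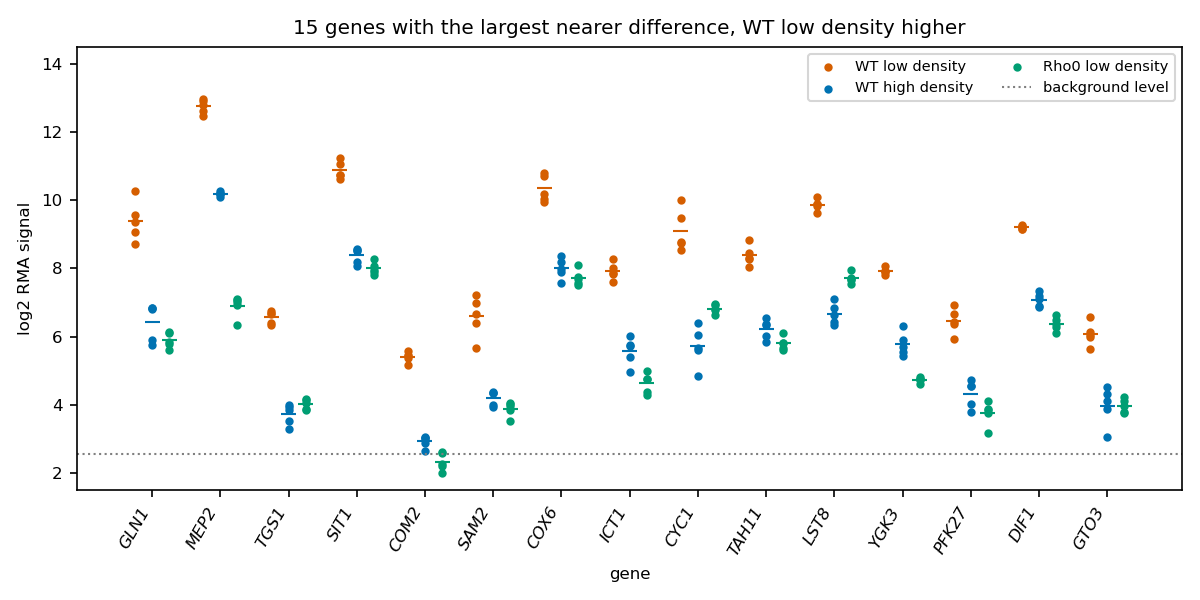
Log2 RMA signal of every array for the 15 genes with the largest nearer difference above both groups, with 1 point per array, bars at the group means and the background level of 2.56 as a dotted line. The 5 WT low density points (orange) lie above all 10 others for each gene, which the choice of genes required. WT high density (blue) and Rho0 low density (green) overlap for most genes and lie apart for MEP2, COM2, CYC1, LST8, YGK3 and DIF1.

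Nuclear genes of the respiratory chain and ATP synthase were above both groups in 17 of 42 cases (40.5%, against 9.08% of all genes). Below both lay 1 of them. COX6 (YHR051W), for subunit VI of cytochrome c oxidase, read 10.71, 10.81, 10.20, 9.96 and 10.05 in WT low density, 8.19, 8.36, 7.89, 7.57 and 7.996 in WT high density and 8.11, 7.51, 7.68, 7.75 and 7.57 in Rho0 low density. WT low density was above both groups on every array, and WT high density overlapped Rho0 low density. COX6 was 5.08-fold above WT high density (adjusted p = 2.50e-09) and 6.16-fold above Rho0 low density (adjusted p = 5.46e-10).

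CYC1 (YJR048W), for the main form of cytochrome c, the carrier between the bc1 complex and the oxidase, read 10.01, 9.49, 8.76, 8.73 and 8.56 in WT low density, 6.05, 6.40, 5.62, 4.86 and 5.66 in WT high density and 6.96, 6.81, 6.92, 6.77 and 6.63 in Rho0 low density. Here the 3 groups were separate, and WT high density was the lowest. The difference was 3.40 ± 0.27 log2 from WT high density and 2.29 ± 0.27 from Rho0 low density (adjusted p = 2.78e-09 and 4.67e-07). CYC7, for the minor form of cytochrome c, was 0.82 and -0.42 against the same groups.

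The other members above both groups came from every complex of the chain. In the bc1 complex these were RIP1 (the Rieske protein, 1.95 and 1.73 log2 against WT high density and Rho0 low density), QCR2 (1.68 and 1.54), QCR8, QCR6, QCR9, QCR10 and COR1. The oxidase gave COX8, COX13, COX4 and COX7 beside COX6, with nearer differences from 0.40 (COX7) to 1.05 (COX8). The ATP synthase gave ATP16 (0.94 and 1.01) and ATP18 (0.88 and 1.47) of its genes, and succinate dehydrogenase gave SDH1 (1.41 and 0.46). The call of SDH1 on 1 side was lost without any 1 of 9 of the 15 arrays (WT low density replicates 1 and 2, WT high density replicates 3 and 5 and each Rho0 low density array), at nearer differences of 0.35 to 0.47.

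The 2 external NADH dehydrogenases parted, since NDE1 was 1.84 ± 0.14 and 1.63 ± 0.14 log2 against WT high density and Rho0 low density and NDE2 -1.01 ± 0.10 and -0.54 ± 0.10. The ATP synthase subunit genes ATP1 (0.50 and -0.89) and ATP2 (2.62 and 0.18), which form the catalytic core, showed no such pattern. Both COX5 isoforms differed from their list too, with COX5A at 0.004 and 2.03 and the hypoxic form COX5B at 1.29 and -0.73. The list's median difference was 0.78 log2 from WT high density and 0.91 from Rho0 low density, against -0.17 and -0.25 for all genes. Its members above both were 8 under the poly-A scaling and up to 23 under another, and below both 1 or 2.

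In the TCA cycle 3 of 17 genes lay above both groups (17.6%, against 9.08% of all genes), with 0 below. Among the 3 was KGD2 (a part of the 2-oxoglutarate dehydrogenase, 1.04 and 1.26 log2 against WT high density and Rho0 low density). A further 6 of the 17 lay between the groups, where 19% of all genes lay. The median difference of the TCA cycle list was 0.71 log2 from WT high density and -0.17 from Rho0 low density. Of 33 carriers of the inner membrane 5 were above (15.2%) and 2 below (6.06%), with MIR1, for the phosphate carrier, at 1.18 and 2.63. The count of carriers below was 0 without WT low density replicate 5 and 1 without any 1 of 6 other arrays (the other WT low density replicates and WT high density replicates 2 and 3). Mitochondrial ribosome genes had 2 of 71 above both (2.82%, against 9.08% of all genes), 10 below (14.1%, against 19.2%) and 19 between the groups. The count below was 16 with the S. pombe scaling, 19 with the poly-A scaling and 17 after a loess trend over gene length was removed, and that above was 1 without any 1 of 9 arrays (WT low density replicates 1 and 2, WT high density replicates 4 and 5 and each Rho0 low density array).

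MRPS16 (YPL013C), for a protein of the small mitochondrial ribosomal subunit, read 7.28, 7.17, 7.13, 7.18 and 7.15 in WT low density, 8.72, 8.94, 9.12, 8.93 and 8.89 in WT high density and 9.996, 9.21, 9.36, 9.39 and 9.41 in Rho0 low density. The WT low density arrays were all lower than the rest, and the highest value, in Rho0 low density replicate 1, stood apart from its group. The differences were -1.74 ± 0.13 and -2.29 ± 0.13 log2 (adjusted p = 1.74e-09 and 4.29e-11). In protein import 4 of 33 genes were above both groups (12.1%, against 9.08% of all genes) and 8 below (24.2%, against 19.2%). TIM22, a channel of the inner membrane, was at 1.52 and 1.52 and the receptor gene TOM70 at -0.89 and -0.86.

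Iron genes were above both groups in 10 of 25 cases (40%, against 9.08% of all genes) and below both in 2 (8%). SIT1 (YEL065W), for a transporter of iron bound to the siderophore ferrioxamine, read 11.24, 10.73, 11.06, 10.73 and 10.61 in WT low density, 8.52, 8.58, 8.55, 8.08 and 8.19 in WT high density and 8.28, 8.07, 7.97, 7.81 and 7.89 in Rho0 low density. WT low density was higher throughout and the other groups overlapped. SIT1 was 5.61-fold above WT high density and 7.31-fold above Rho0 low density (adjusted p = 4.79e-11 and 6.54e-12).

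ISU2 and ISU1, scaffolds on which iron-sulfur clusters are built, were higher by 2.24 and 0.86 log2 than in WT high density and by 1.48 and 1.06 than in Rho0 low density. MRS4, for a mitochondrial iron importer, was higher by 1.86 and 1.44, and FIT2, for a siderophore-holding wall protein, by 1.47 and 1.74. TIS11, for a protein that binds and destabilizes mRNAs when iron is scarce, was higher by 1.25 and 0.999. The vacuolar iron genes FTH1, FET5 and FRE6 and the siderophore transporter gene ARN2 completed the members above both.

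The high-affinity iron uptake pair showed no common pattern. FET3, for the oxidase, was 1.76 log2 against WT high density and 0.20 against Rho0 low density, and FTR1, for its permease partner, 0.13 and 2.19. FIT1 (-0.80 and -1.48) and FRE2 (-0.55 and -0.46) were below both groups. Heme synthesis, which consumes iron, had 3 of 11 genes above both (27.3%), HEM13 (2.20 and 1.43), HEM1 (1.32 and 1.92) and HEM3. It had 1 below (9.09%), HEM14 (-0.85 and -0.98). A further 5 of the 11 heme genes lay between the groups, where 19% of all genes lay. The median difference of the heme list was 0.65 log2 from WT high density and -0.53 from Rho0 low density. Iron genes above both numbered 5 to 13 under the other scalings and those below 1 to 3, and for heme genes the counts were 2 and 2 with the poly-A controls.

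Pleiotropic drug resistance genes are targets of Pdr1 and Pdr3 that export drugs and lipids or remodel membranes. They were above both groups in 7 of 13 cases (53.8%, against 9.08% of all genes) and below both in 1. ICT1 (YLR099C), for a lysophosphatidic acid acyltransferase, read 8.27, 7.83, 8.0, 7.87 and 7.60 in WT low density, 6.02, 5.75, 5.40, 5.73 and 4.97 in WT high density and 4.98, 4.76, 4.28, 4.37 and 4.77 in Rho0 low density. The WT low density values lay above all others, and those of the other groups overlapped. ICT1 was 5.06-fold above WT high density and 9.73-fold above Rho0 low density (adjusted p = 3.08e-09 and 3.25e-11).

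The phosphatidylinositol transfer protein gene PDR16 was higher by 2.25 ± 0.13 and 2.05 ± 0.13 log2, and the lipid translocation gene RSB1 by 2.05 and 2.71. The efflux pump genes PDR5 (2.64 and 1.16), SNQ2 (2.35 and 0.68) and YOR1 (1.89 and 1.49) and the polyamine exporter gene TPO1 (2.43 and 0.40) were higher too. FLR1, for an exporter of another family, was lower, at -1.37 and -0.97, and the weak acid pump gene PDR12 went opposite ways (-0.92 and 4.72). The counts were 5 to 9 above and 1 or 2 below under the other scalings.

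Hypoxic genes lay on both sides. OLE1 (YGL055W), for the fatty acid desaturase, read 12.61, 12.56, 12.31, 12.18 and 12.13 in WT low density, 10.32, 10.70, 10.33, 10.21 and 10.33 in WT high density and 9.60, 9.36, 9.39, 9.48 and 9.41 in Rho0 low density, with no overlap between groups. It exceeded them by 1.98 ± 0.12 and 2.91 ± 0.12 log2 (adjusted p = 1.38e-10 and 7.34e-13). ROX1, for the repressor of hypoxic genes, was higher by 1.67 and 2.65, and HEM13 was the third of the 3 members above both out of 19.

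The 8 hypoxic genes below both groups (42.1% of the list, against 19.2% of all genes) all code for mannoproteins of the cell wall. They were TIR4 (-1.85 and -1.57 log2 against WT high density and Rho0 low density), TIR2 (-2.03 and -0.73), DAN4 (-1.06 and -1.42) and PAU2, PAU5, PAU7, PAU23 and PAU24. The PAU genes are near copies of each other, so their probe sets may share signal.

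The remaining genes with the largest nearer difference above both groups had varied roles. TGS1 (YPL157W), for the enzyme that hypermethylates the caps of small nuclear and nucleolar RNAs, read 6.74, 6.67, 6.69, 6.34 and 6.40 in WT low density, 3.99, 3.29, 3.92, 3.52 and 3.85 in WT high density and 4.16, 3.83, 4.05, 3.89 and 4.14 in Rho0 low density. Its groups did not overlap between WT low density and the rest, and the differences were 2.85 ± 0.14 and 2.56 ± 0.14 log2. LST8, for a subunit common to both TOR kinase complexes, had means of 9.87 ± 0.17 in WT low density, 6.67 ± 0.31 in WT high density and 7.71 ± 0.15 in Rho0 low density (± SD, n = 5), and its 3 groups were separate.

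PFK27, for a kinase that makes the glycolytic activator fructose 2,6-bisphosphate, was higher by 2.14 ± 0.21 and 2.71 ± 0.21 log2 than WT high density and Rho0 low density. YGK3, for a kinase of the GSK-3 family, was higher by 2.15 ± 0.14 and 3.19 ± 0.14, and the zinc finger protein gene COM2 by 2.48 ± 0.13 over WT high density. COM2 was at least 7.17-fold above Rho0 low density, where its mean lay under the background level. TAH11, for the Cdt1 protein that licenses replication origins, was higher by 2.16 ± 0.16 and 2.58 ± 0.16.

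DIF1, which brings ribonucleotide reductase subunits into the nucleus, was higher by 2.13 ± 0.12 and 2.84 ± 0.12 log2 in the same comparisons, and GTO3, for a glutathione transferase of the omega class, by 2.10 ± 0.22 and 2.11 ± 0.22. GTO3 was the only one of the 15 for which the other groups were within 1.5-fold by their interval, at means of 3.97 and 3.97. MRT4, for an assembly factor of the large ribosomal subunit, joined MEP2, MUP3, GLN1 and CYC1 among the 5 largest differences from the average, at 2.93 ± 0.15. Over the 34 genes ranked by size in either direction the highest limma adjusted p was 0.000725.

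Several of the 15 genes lowest by the nearer difference code for proteins that act on RNA, a grouping made after their values were seen. PRP16 (YKR086W), for the helicase that acts before the second step of splicing, read 3.18, 3.70, 2.95, 3.37 and 2.86 in WT low density, 4.86, 5.18, 5.34, 5.50 and 5.35 in WT high density and 5.40, 4.90, 5.09, 5.23 and 5.44 in Rho0 low density. By the ranking rule every WT low density array was lower than the 10 others, which overlapped with each other. PRP16 was 4.1-fold and 4.01-fold lower (adjusted p = 3.80e-09 and 4.49e-09), and its other groups lay within 1.5-fold of each other by their interval.

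PRP22, for the helicase that releases spliced mRNA, was -1.83 ± 0.22 and -2.05 ± 0.22 log2 against WT high density and Rho0 low density, and SYF1, for a splicing factor, -2.18 ± 0.22 and -1.67 ± 0.22. MFT1, for a subunit of the THO complex, which couples transcription to mRNA export, was at -1.64 ± 0.17 and -1.86 ± 0.17. SLH1, for a helicase linked to stalled ribosomes, was at -1.75 ± 0.30 and -1.95 ± 0.30, with a WT low density mean of 2.71 near the background level.

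NMD2 (YHR077C), for the Upf2 factor of nonsense-mediated mRNA decay, read 3.15, 3.20, 3.58, 3.09 and 3.28 in WT low density, 5.85, 6.13, 6.04, 6.04 and 5.99 in WT high density and 5.33, 5.06, 4.99, 4.72 and 5.32 in Rho0 low density. The 3 groups were separate, with WT high density the highest. The differences were -2.75 ± 0.13 and -1.82 ± 0.13 log2 (adjusted p = 4.68e-12 and 7.95e-10).

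YAP1 (YML007W), for the activator of the oxidative stress response, read 2.67, 3.07, 2.90, 3.10 and 2.80 in WT low density, 5.41, 4.52, 4.75, 5.02 and 4.40 in WT high density and 5.34, 4.76, 4.80, 4.94 and 5.01 in Rho0 low density. The WT low density values were the lowest on all arrays and the others overlapped, within 1.5-fold of each other by their interval. YAP1 was 3.76-fold and 4.18-fold lower (adjusted p = 1.46e-08 and 5.16e-09).

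Of 26 antioxidant genes 5 were below both groups and 2 above, and 11 lay between. Below were, beside YAP1, the glutaredoxin gene GRX2 (-0.96 and -1.48 log2 against WT high density and Rho0 low density), the peroxiredoxin gene AHP1 (-0.67 and -2.09), GSH1, for the first enzyme of glutathione synthesis (-1.18 and -0.89), and the thioredoxin gene TRX2 (-0.32 and -0.24). Above were CCP1, for the mitochondrial cytochrome c peroxidase (1.21 and 0.63), and SKN7, for a regulator that acts with Yap1 (0.71 and 1.62). ECM4, for another omega-class glutathione transferase, was at -1.65 and -1.93, opposite in direction to GTO3. The share of antioxidant genes below both (19.2%) equalled that of all genes.

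HXT14 (YNL318C), for a member of the hexose transporter family, read 1.93, 2.36, 2.66, 3.003 and 3.32 in WT low density, 5.48, 5.59, 6.49, 6.51 and 6.60 in WT high density and 4.22, 4.70, 4.69, 4.77 and 4.98 in Rho0 low density. No values overlapped between groups, and 2 of the WT low density values lay under the background level. HXT14 was 11.2-fold and 4.05-fold lower (adjusted p = 1.26e-09 and 1.48e-06). Of the 17 hexose transporters it was the only one below both, and HXT8 the only one above, with a call that was lost without any 1 of 7 arrays (WT low density replicates 3, 4 and 5 and WT high density replicates 1, 2, 4 and 5), at 0.27 to 0.41.

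Glycolysis and fermentation had 8 of 24 genes below both groups (33.3%, against 19.2% of all genes) and 1 above (4.17%, against 9.08%). PDC1, for the main pyruvate decarboxylase, was -1.64 ± 0.15 and -0.69 ± 0.15 log2 against WT high density and Rho0 low density, and its relatives PDC5 (-0.40 and -1.32) and PDC6 (-2.30 and -0.45) were lower too. PGK1, CDC19, TDH3, FBA1 and ADH4 had nearer differences between -0.50 (ADH4) and -0.32 (FBA1). The 1 gene above both was ADH3, for the mitochondrial alcohol dehydrogenase (1.10 and 0.74).

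Cell cycle and replication genes were below both groups in 17 of 41 cases (41.5%, against 19.2% of all genes) and above in 2. ORC1 (YML065W), for the largest subunit of the origin recognition complex, read 4.23, 4.11, 3.92, 3.67 and 3.24 in WT low density, 5.55, 5.91, 6.11, 6.15 and 5.83 in WT high density and 5.66, 5.33, 5.43, 5.54 and 5.74 in Rho0 low density. All WT low density values were the lowest, and the other groups overlapped. ORC1 was 4.22-fold and 3.27-fold lower (adjusted p = 4.11e-09 and 5.24e-08).

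RNR2 (YJL026W), for the small subunit of ribonucleotide reductase, read 7.88, 7.58, 7.98, 8.07 and 8.13 in WT low density, 9.65, 9.12, 9.51, 9.35 and 9.45 in WT high density and 9.40, 9.44, 9.56, 9.44 and 9.27 in Rho0 low density. WT low density was lower on every array, and the other groups had nearly the same mean, 9.42 and 9.42. RNR2 was 2.81-fold and 2.82-fold lower, and RNR4 and RNR3, for other subunits of the enzyme, were lower as well (-0.94 and -1.69 log2, and -1.02 and -0.63).

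The cyclin genes CLB5 (-1.43 and -2.03 log2 against WT high density and Rho0 low density), CLN3 (-2.58 and -0.96) and CLN2 (-0.57 and -0.43) were lower, as was SIC1, for the inhibitor of S phase cyclins (-1.05 and -1.03). Of the replicative helicase MCM2, MCM4, MCM5 and MCM7 were below both. The further members were ORC6, CDC9, RFA2, SWI6 and MBP1. FAR1, for the inhibitor that arrests cells in G1 under pheromone (1.51 and 1.08), and CLB1, a mitotic cyclin gene (1.91 and 0.78), were above both.

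The count below both was 7 to 26 under the other scalings and 13 after a loess trend over gene length was removed, with 3 above. MMS4, for a subunit of a nuclease that resolves recombination intermediates, ranked among the 15 lowest at -1.79 ± 0.17 and -1.70 ± 0.17. Histone genes are copied into mRNA mainly in S phase. They were above both in 5 of 10 cases (50%, against 9.08% of all genes) and below in 0. HHT1 was at 1.23 and 0.51 and HTA1 at 0.44 and 0.80. Histone genes come in near copies, and 0 were above both with the poly-A scaling. The count was 3 with the S. pombe scaling, 3 with the length trend removed, and 3 without any 1 of 8 arrays (WT low density replicates 1 to 4 and Rho0 low density replicates 2 to 5).

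**Figure D3:**
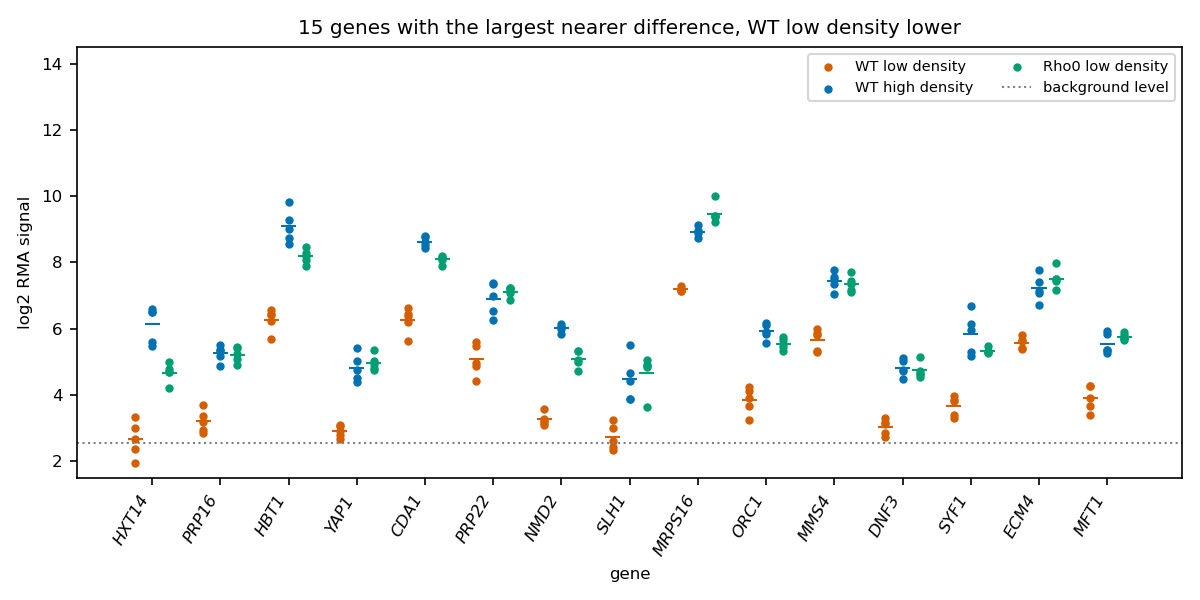
Log2 RMA signal of every array for the 15 genes with the largest nearer difference below both groups, drawn as for the higher genes. The 5 WT low density points lie under all 10 others for each gene, which the choice of genes required. The WT low density points of HXT14 and SLH1 scatter around the background level of 2.56.

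Further genes below both groups had roles at the cell surface or in transcription. HBT1 (YDL223C), for a protein bound by the ubiquitin-like Hub1, read 6.42, 6.45, 6.23, 6.55 and 5.70 in WT low density, 9.83, 9.002, 9.28, 8.56 and 8.73 in WT high density and 8.47, 8.27, 7.88, 8.20 and 8.09 in Rho0 low density, with no overlap, and differed by -2.81 ± 0.21 and -1.91 ± 0.21 log2. CDA1, for a chitin deacetylase of the spore wall, was at -2.37 ± 0.15 and -1.84 ± 0.15, and DNF3, for a phospholipid flippase, at -1.77 ± 0.15 and -1.69 ± 0.15. By the difference from the average SRB7, for a Mediator subunit (-1.31 and -3.24), and SEO1, for a permease-like protein (-3.18 and -1.29), joined the lowest 5.

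Thiamine synthesis was below both groups in 5 of 16 genes (31.25%, against 19.2% of all genes) and above in 0. THI13, 1 of several near-identical genes for the pyrimidine branch, was -1.71 ± 0.14 and -1.55 ± 0.14 log2 against WT high density and Rho0 low density, and THI20 and THI21 were lower. So were SNZ3 and the transporter-like gene THI72, whose call was lost without any 1 of 4 arrays (replicates 2 and 5 of WT low density and 1 and 2 of WT high density), at -0.68 to -0.62. Translation factors were below both in 8 of 35 cases (22.9%, against 19.2% of all genes) and above in 1, with HYP2, for eIF5A, at -0.93 and -1.08 and the poly(A)-binding protein gene PAB1 at -0.74 and -0.95. Under the other scalings 4 to 13 translation factors were below both, and 4 with the length trend removed. Sporulation and meiosis genes, which mark a diploid program, were below both in 7 of 24 cases (29.2%, against 19.2% of all genes). Above both lay 1 of them, IME4 (0.80 and 1.97). The count below was 3 to 14 under the other scalings, and 4 of the 24 had means under the background level in every group. Ergosterol synthesis had 6 of 26 below (23.1%, near the share of all genes) and 1 above, with ERG5 at -1.33 and -1.23.

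The following 5 lists held more members between the groups than on 1 side of both. Of 27 heat shock and chaperone genes 20 lay between the groups, 1 lay below both (SSA3, -1.46 and -0.71) and 0 above, and of 33 proteasome genes 15 lay between, 3 below and 0 above. Trehalose and glycogen genes had 13 of 20 between, 2 above and 3 below, with the regulator gene PIG1 at least 1.96-fold and at least 2.66-fold lower. Of 127 cytosolic ribosomal protein genes 8 were above, 6 below and 26 between, and of 43 ribosome biogenesis genes 1, 5 and 8. Of all genes 19% lay between, and the ribosomal protein and ribosome biogenesis lists were near that share. Leaving out 1 array moved 3 of these lists by over 1.5 times. Proteasome genes below both numbered 1 without WT high density replicate 2. Ribosomal protein genes above both numbered 5 without WT low density replicate 4, and those below 10 without WT low density replicate 1. Trehalose and glycogen genes above both numbered 0 without WT low density replicate 1 or 2, and 1 without any 1 of 7 other arrays (WT low density replicate 3, WT high density replicates 4 and 5 and Rho0 low density replicates 2 to 5). The larger side turned or evened out under at least 1 other scaling for the ribosomal protein, ribosome biogenesis, heat shock, trehalose and glycogen, carrier and protein import lists.

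Among all genes 1037 (19%) lay between the others with both comparisons called, 609 (11.2%) above WT high density and below Rho0 low density and 428 (7.85%) the reverse. The average alone does not place WT low density on 1 side. The means of ADH2 were 12.46 in WT low density, 13.78 in WT high density and 5.57 in Rho0 low density. This alcohol dehydrogenase gene differed from the average by 2.79 ± 0.11 log2 although the dense cells held more of its mRNA. ADY2 (acetate transport), FDH1 (formate dehydrogenase), EFM4 and PUT4 had the same order of groups. On the lower side SRL4 (2.82, 6.95 and 2.17) and the wall protein gene NCA3 (10.19, 14.09 and 8.72) lay between in that order too. For SRL4 the WT low density arrays overlapped those of Rho0 low density, whose mean lay under the background level. UBA1, PIR1 and GPM2 were highest in Rho0 low density.

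**Figure D4:**
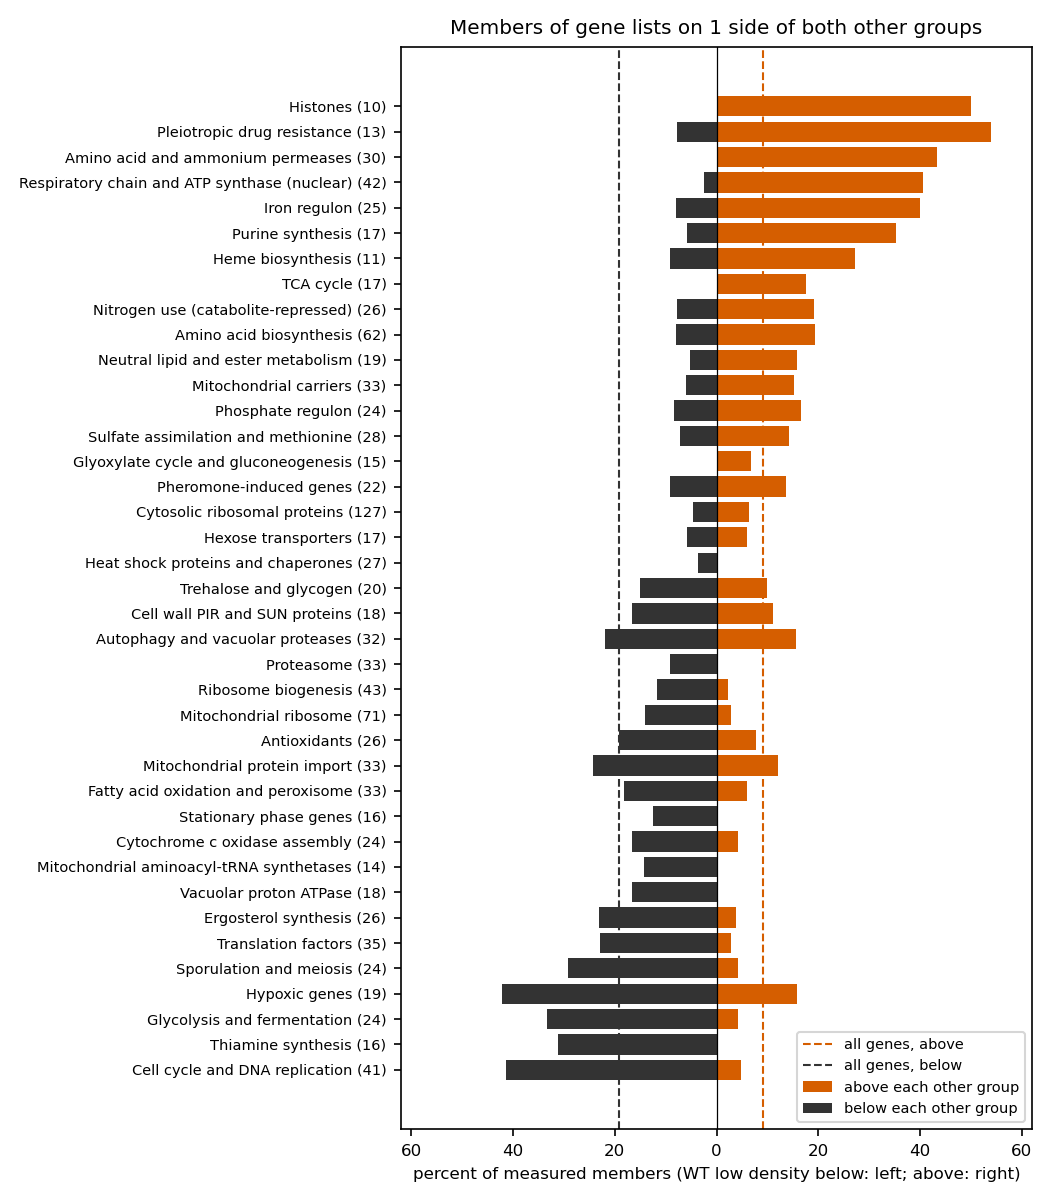
Bars give the percent of measured members that lay above both other groups (orange, to the right) or below both (dark grey, to the left). Gene lists with at least 10 measured members (number in brackets) are drawn, with dashed lines at 9.08% and 19.2% for all genes. Smaller lists, such as the genes specific to mating type a, are left out. Pleiotropic drug resistance, histones, permeases, the respiratory chain and iron genes reach at least 40% above, and cell cycle and hypoxic genes exceed 40% below. With arrays scaled to poly-A controls the histone count above both is 0.

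Signs of RNA state moved with the groups. The control at the 5′ end of 25S ribosomal RNA read 11.36 ± 0.45 log2 in WT low density (mean ± SD, n = 5), 7.87 ± 0.13 in WT high density and 7.75 ± 0.27 in Rho0 low density. The WT low density arrays were above all others (exact two-sided permutation p = 0.00794 against each group, the smallest that 5 against 5 arrays allow, adjusted p = 0.0123 over 28 tests). The middle of that RNA averaged 14.17, 10.99 and 13.28 in the same order of groups and its 3′ part 14.16, 13.94 and 14.24. The difference between the 5′ and 3′ probe sets of ACT1 was -1.90 in WT low density, -1.57 in WT high density and -1.61 in Rho0 low density (exact permutation p = 0.00794 against each). The 3 other such controls did not put WT low density on 1 side of both. In the same order of groups the difference was -0.77, -1.39 and -0.62 for TDH1 (exact permutation p = 0.0238 against WT high density and 0.23 against Rho0 low density), -1.54, -1.29 and -1.99 for RIP1 (exact p = 0.135 and 0.00794) and -3.16, -2.43 and -3.40 for WBP1 (exact p = 0.0159 and 0.294).

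Gene length also moved with the calls. Of the 1361 genes with an annotated length of 1902 to 14733 bp 3.97% lay above both groups and 31.5% below, against 12.4% and 14.1% of the 1366 genes of 51 to 756 bp. The genes above both had a median length of 1032 bp, those below 1656 bp, and all genes 1236 bp. Of the 15 lowest genes by nearer difference 11 were longer than the median gene, with HBT1 (3141 bp), PRP16 (3216 bp), NMD2 (3383 bp), PRP22 (3438 bp), DNF3 (4971 bp) and SLH1 (5904 bp) the longest, and of the 15 highest 4 were. The respiratory chain list had a median length of 454.5 bp. With a loess trend over length removed from the values of each array before the fit, 482 genes lay above both and 926 below. Of these 444 and 814 were shared with the counts above. The respiratory chain list stayed at 17 and 1. The part of RNA state in these results was not tested beyond these values. The calls moved with signal level too. Of the 1363 genes at 1.77 to 3.95 log2, 2.71% lay above both groups and 22.3% below. Of the 1362 genes at 8.01 to 14.4 log2 these shares were 14% and 11.5%. The share below did not fall steadily, and was 26% among genes at 3.95 to 5.84 log2. Gene lists were compared with the shares of all genes whatever their level, and the part of level in the list shares was not tested.

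**Figure D5:**
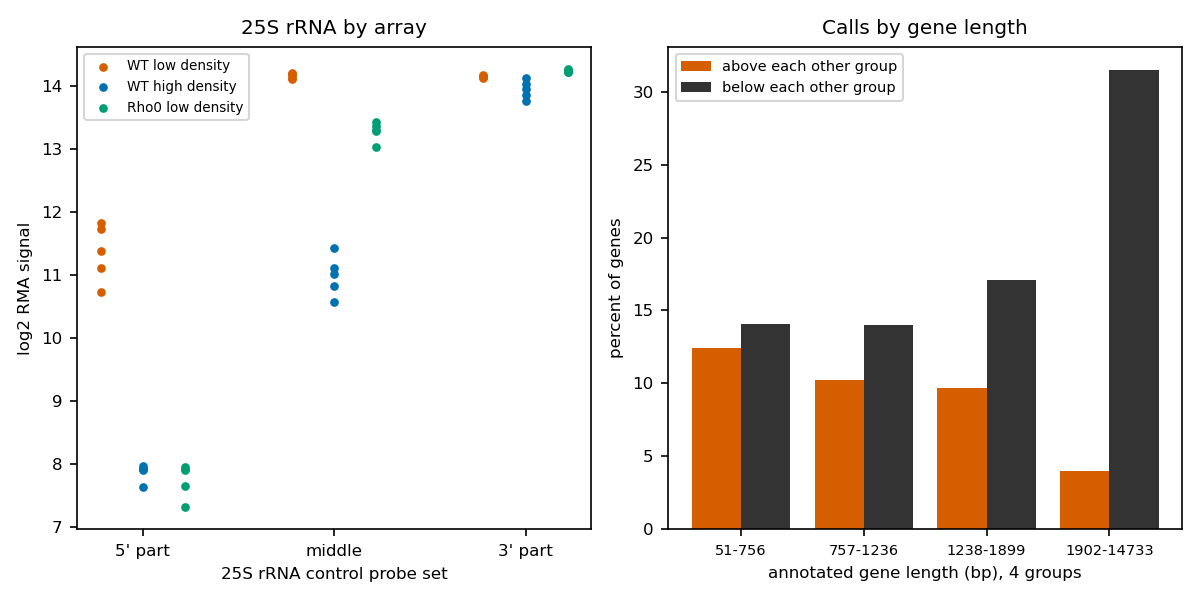
Left, log2 RMA signal of the 5′, middle and 3′ probe sets of 25S ribosomal RNA, with 1 point per array; the 5′ part stands near 11 in WT low density and near 8 in both other groups. Right, percent of genes above (orange) and below (dark grey) both other groups in 4 groups of like size by annotated gene length; the share below rises from 14.1% to 31.5% and the share above falls from 12.4% to 3.97%.

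Neighbours on the chromosome were called on the same side at shares near those of all genes. Of 29 measured neighbours of the 15 highest genes 4 lay above both groups (13.8%, against 9.08% of all genes), and of 27 neighbours of the 15 lowest genes 7 lay below both (25.9%, against 19.2%). On the opposite side lay 4 neighbours, HPA3 beside SIT1, SAK1 beside COM2, ECM30 beside DIF1 and HLJ1 beside DNF3. None of the pairs had overlapping annotations. YHR050W-A, beside COX6, was higher by 2.20 and 2.39 log2 than WT high density and Rho0 low density. PRM4, beside TGS1, was higher by 1.36 and 1.14, and MIM2, for a mitochondrial outer membrane protein, beside ICT1, by 1.21 and 2.38. PTC7, beside NMD2, was -1.45 and -1.65.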

How the data were processed

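RNA of 15 samples, 5 in each of 3 groups, was purified with TRIzol and DNase, and biotin label was put on cRNA from 100 ng of it, per the labels. The values deposited by the authors are log2 signals from RMA, and Affymetrix Expression Console is the software named in the submitters' processing notes, with no version or genome build given in the sources used here. RMA sets all arrays to 1 distribution, which makes each value relative to the rest of its array. The table held 10928 probe sets with values from 1.28 to 14.6 for 15 arrays. The platform annotation named 1 gene for 7244 probe sets, several for 1 and none for 3683, of which 213 were controls or reporters. A reference table of S. cerevisiae genes matched 5498 of them, and 1746 counted as S. pombe. Where several probe sets named a gene (47 genes) that with the highest mean was kept, which left 5449 genes, 4950 with a standard name.

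In limma 3.58.1 under R 4.3.3, lmFit estimated 3 group means from the 15 arrays (12 residual degrees of freedom) and eBayes, with no trend, moderated the errors. Two-sided p-values were adjusted by the Benjamini-Hochberg method across 5449 genes and called under 0.05. Differences between groups had a median SE of 0.15 log2, and of the difference from the average 0.13. A gene list is described by counts and medians only. The members and lists were chosen with earlier results of these data known. Genes named are the 15 each way with the largest nearer difference and the 5 each way with the largest difference from the average, among genes on 1 side with no overlap of WT low density with the other arrays, higher groups with means over the background level, a standard name and a gene-specific probe set. To them come the 2 members of each list on 1 side with the largest nearer difference and the 5 largest differences from the average each way among genes between the others. Other list members were named after their values were seen.

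On simulated data of 5449 genes, 48% of genes moved by 0.5 log2 on 1 side of both groups were called so, 90% at 1 log2 and 100% at 2 and 3 log2, with 4 such calls among unchanged genes. There 50 genes were moved at each size and 400 in 1 other group, with independent noise and no shift of array scale. In the real data 65.1% of genes differed from the average, so these rates need not hold for them. Arrays of a group correlated at 0.977 to 0.997, and no arrays were identical. Alternatives were the replicate number as a block, a trend with robust estimation, genes above background only, the 4 other scalings, means over probe sets, array weights, a test against a 1.5-fold change, each array left out in turn and, chosen after seeing the data, a loess trend over gene length removed. Promoter sequences were not used here.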

Additional observations from a re-analysis of the deposited data

Results flagged for a closer look

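Within groups of 5 arrays, 1 value stood apart by Dixon's test at the 95% level in 22 of 345 tests on 115 genes (6.38%), where chance gives about 1 in 20. Of these 22, 11 were values of Rho0 low density replicate 1. Among genes above both groups its value of MEP2 was 6.33, with the next at 6.94, that of ARO3 5.72 (next 4.79) and that of ATG39 8.47 (next 7.81). Among genes below both it read 9.996 for MRPS16 (next 9.41), 11.38 for GRX2 (next 10.92), 9.57 for RPL38 (next 8.87) and 7.60 for PAB1 (next 7.10). It also read 12.09 for PDC1 (next 11.70), 6.71 for SCL1 (next 5.38) and 5.68 for VMA8 (next 5.22), and 8.11 for NCA3 (next 8.80), which lay between the groups.

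The other 11 values that stood apart were spread over 8 arrays. In Rho0 low density they were SLH1 (3.62, next 4.84) and SYF1 (5.49, next 5.31) in replicate 3 and MAK21 (2.77, next 3.14) in replicate 4. WT low density gave MRS4 (9.29, next 8.80) and ADH3 (12.65, next 12.15) in replicate 1, NAM2 (2.47, next 3.32) in replicate 2, and TOM70 (3.75, next 3.07) and ERG5 (5.93, next 5.68) in replicate 4. WT high density gave OLE1 (10.70, next 10.33) in replicate 2, HXT8 (3.28, next 2.79) in replicate 3 and PIR1 (7.41, next 7.56) in replicate 5. Despite these values the calls of MEP2, MRPS16, SLH1 and SYF1 held without any single array, while those of HXT8 and SCL1 were lost in some of these fits.

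Of 47 reporter probe sets, which the comparison of genes did not use, 6 differed by over 2 log2 between groups, and all 6 were at or near background in Rho0 low density. Their means in WT low density were 5.74, 8.89, 8.31, 11.11, 5.63 and 9.85, and over both WT groups they ran from 5.07 to 11.8. In Rho0 low density they ran from 1.87 to 2.61. The annotation used names no gene for them, and the labels name no difference between the strains other than Rho0.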

How the results depend on the processing

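The counts of genes above and below the average (1130 and 2415) and on 1 side above and below (495 and 1045) stayed within 1.5 times under the trend with robust estimation, genes above background only, the S. pombe scaling, means over probe sets, array weights and the loess over length. With arrays shifted to the same poly-A mean they were 450, 3680, 179 and 1874, and against a 1.5-fold change 407, 594, 161 and 187. Genes below both numbered 598 after quantile normalization within the S. cerevisiae genes and 626 with arrays at the same S. cerevisiae median. The cause of these shifts was not tested. With each array left out in turn the counts were 1060 to 1150, 2271 to 2463, 460 to 500 and 964 to 1081. The 18S ribosomal 5′ control differed between WT low and high density by 0.023 log2, and by -0.0107 to 0.0433 with arrays left out. Genes on 1 side with the other groups close rose from 129 and 352 to 295 and 770 when close meant an interval within 1 log2. Same-numbered arrays correlated at -0.05 to 0.37 in their deviations from the group means, with 8 of 15 pairs over 0.1. WT low with WT high density gave 0.19 to 0.37 in replicates 1, 3, 4 and 5. All pairs of replicate 1 gave 0.19 to 0.37, and those of replicate 5 0.19 to 0.25. The labels do not say whether equal numbers mark a shared culture or day, which was not tested. The main fit did not pair the arrays. With the replicate number as a block the counts were 1174, 2490, 520 and 1097. The 34 genes ranked by size, chosen for large differences in these same data, kept both calls in all 26 settings. For the 10 genes between the groups only the call against the average was checked, and it held. Their opposite calls against each group were not checked there. Of 1846 checks on the other 71 named genes 114, in 37 genes, lost the call, 31 of them against a 1.5-fold change, and 0 reversed. Leaving out 1 array also moved list counts of 0 to 2 members by 1 in the hexose, glycolysis, ergosterol, ester, phosphate, purine, thiamine, translation factor and respiratory chain lists. Depth has no measure on arrays, and 137 genes below both had a WT low density mean under the background level, where the size of a difference has only a lower bound.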

Other observations

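Lists for cell structures not described above gave further members on 1 side. ATG15, for the lipase that breaks down autophagic bodies in the vacuole, lay 2.05 ± 0.18 log2 above WT high density and 1.72 ± 0.18 above Rho0 low density. ATG39, a receptor for autophagy of the nuclear envelope, lay 0.95 and 1.81 above. Their list had 5 of 32 genes above both (15.6%, against 9.08% of all genes) and 7 below (21.9%, against 19.2%). EEB1 and EHT1, for enzymes that make ethyl esters of fatty acids, were both above, EEB1 by 1.20 and 2.05 and EHT1 by 3.82 and 0.66. Of 19 genes of neutral lipids and esters 3 were above (15.8%) and 1 below (5.26%). PHO4 and PHO2, for the paired activators of phosphate genes, went opposite ways, PHO4 by 1.51 and 2.30 and PHO2 by -0.93 and -1.25. Their list of 24 had 4 above (16.7%) and 2 below (8.33%). PCK1, for the key enzyme of gluconeogenesis, was above both by 2.28 and 1.04, the 1 member of 15 on either side. PEX27, a gene of peroxisome division, was below both (-1.18 and -2.09), as were 5 others of 33 peroxisome and fatty acid oxidation genes, with 2 above. The share of that list below both, 18.2%, was near the 19.2% of all genes. The vacuolar ATPase gave 3 of 18 below (16.7%, also near the share of all genes) and 0 above, with VMA8 among those below at -0.87 and -1.82. The larger side of the autophagy list turned with quantile normalization and with the same S. cerevisiae median, and those of the ester, phosphate and gluconeogenesis lists with the poly-A scaling.

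The a pheromone gene MFA2 was above both groups by 1.98 and 1.19 log2. Of 7 genes specific to mating type a, 3 were above both (42.9%, against 9.08% of all genes) and 1 below (14.3%, against 19.2%). FAR1 and PRM4, induced by pheromone, were above both too, with 3 above (13.6%) and 2 below (9.09%) in a list of 22. The count of a-specific genes above both was 1 without WT low density replicate 3. The larger side of both lists turned or evened out under the S. pombe and poly-A scalings. Of 499 measured genes without a standard name 72 lay above both groups and 69 below, against 9.08% and 19.2% of all genes.

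Probe sets for which the annotation names no gene were fitted on their own. Of 3470 such probe sets 524 lay above the background level in at least 1 group, and 81 lay above both groups and 37 below. The largest nearer difference was 3.23 log2, with means of 9.70 in WT low density, 6.47 in WT high density and 5.71 in Rho0 low density, followed by 2.86.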
